A study of Arabidopsis thaliana with 24 samples.

Results

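The comparison described here sets rosettes of Arabidopsis thaliana kept at 12 °C for 6 h against rosettes kept at 20 °C for the same 6 h. It rests on 4 of the 24 arrays of the series, the arrays titled short 12A and short 12B and the arrays titled control shortA and control shortB, which were paired by their letter. All 22746 probe sets for plant transcripts entered the comparison, out of 22810 in the table, and the 64 control probe sets were left out. Every plant in the comparison was of the Columbia-0 genotype and carried no mutation or transgene named in the labels. Plants grew on soil at 20 °C with 12 h of light per day at an intensity of 130 µmol for 4 weeks, were moved 4 h into the light, and were frozen 6 h later, 10 h into the light. The 20 °C plants were moved at the same hour into 20 °C. Each sample pooled 3 rosettes. The same genotype, age and handling held for the 6 h arrays at 17, 14, 10 and 8 °C and for the 12 °C and 20 °C arrays of 78 h, which are used below for comparison.

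Chilling without freezing sets off cold acclimation in Arabidopsis. CBF transcription factors are made within hours and switch on cold-regulated (COR) genes, whose products include dehydrins and other hydrophilic proteins that protect membranes and enzymes. Leaf metabolism is adjusted at the same time, with changes in sugar transport and storage, in flavonoid pigments, in photosynthetic electron transport and in the making and turnover of proteins.

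All values below are the deposited signals on the log2 scale, and differences are 12 °C minus 20 °C. A probe set was called when its adjusted p in limma was below 0.05 after Benjamini-Hochberg adjustment over all 22746, in a fit that includes the replicate letter as a block. At 12 °C, 1256 probe sets were higher and 1501 were lower than at 20 °C, which is 12.1% of those tested (5.52% higher and 6.6% lower). Without the letter block 619 were called (2.72%), 245 higher (1.08%) and 374 lower (1.64%), and all 619 were among the 2757. The called differences were mostly small. Their median was 0.49 among the higher and -0.45 among the lower, 125 were higher by at least 1 log2 unit, 94 were lower by at least that much, and 14 and 4 passed 2 units. Across all probe sets the median difference was 0.00 and the median standard error 0.097.

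The A and B differences correlated at 0.74 across probe sets, which share their arrays and are not independent. Over all probe sets, 68.3% differed the same way in both letters, and in 33.9% the 12 °C and 20 °C values did not overlap. Among the 2757 called, which these same values chose, all differed the same way and 2373 (86.1%) did not overlap, a description that the choice largely fixes. Calls were rarer among dim probe sets, at 1.07% of the dimmest 25% and 22.4% of the brightest 25%. Leaving out 1 array lowered the number called to 1654 without the 12 °C A array, 1173 without the 12 °C B array, 1800 without the 20 °C A array and 1146 without the 20 °C B array.

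**Figure D1:**
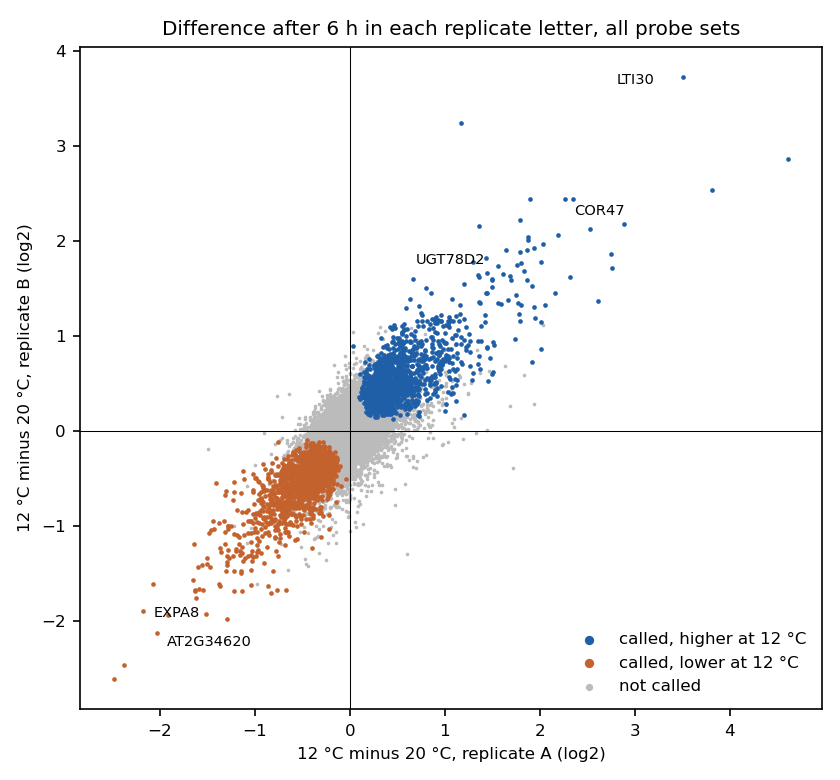
Difference between 12 °C and 20 °C after 6 h on the log2 scale in replicate A (horizontal) and replicate B (vertical). Each point is 1 of 22746 probe sets, blue where called higher at 12 °C (1256), orange where called lower (1501) and grey where not called, and the called points lie in the upper right and lower left quadrants.

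Marker genes of leaf and root were read on the 4 arrays. A lack of calls among them does not show which tissue was sampled. Of 13 leaf photosynthesis markers 8 were measured, none was called, and their median difference was -0.03. RCA, the activase of the carbon-fixing enzyme, read 14.18 and 13.61 at 12 °C, against 14.14 and 13.54 at 20 °C. The root markers EXPA7 and EXPA18 read between 5.51 and 6.04 on the 4 arrays and PYK10 between 9.70 and 9.93, and none was called. EXPA7 and EXPA18 thus lay below the medians of these arrays, 7.16 to 7.21, and PYK10 lay above them. The 6 flower and seed markers were on no probe set with a single listed gene and were not analysed here. In whole rosettes, fewer cells of a type and less RNA per cell cannot be told apart. The labels name the samples as separate but not where they came from, and their protocol speaks of typically at least 5 replicate samples where each group has 2 arrays, so the p-values measure the spread between these samples only.

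Cold-regulated genes gave the largest rises among the named genes. Of 31 entries in the list of COR genes, dehydrins and the CBF pathway, 7 were measured on a probe set with a single gene. Of these 4 were called higher and none lower, against 5.52% called higher of all probe sets. The list median was 1.09, against 0.00 over all probe sets. LTI30, a dehydrin, read 13.10 and 12.50 at 12 °C, against 9.59 and 8.77 at 20 °C. Both 12 °C arrays lay above both 20 °C arrays, and the difference of 3.62 (SE 0.21, adjusted p = 3.21e-07) is a 12.3-fold rise. COR47, another dehydrin, read 13.83 and 12.91 at 12 °C, against 11.57 and 10.46 at 20 °C, so that the lower of the 12 °C arrays was still above the higher of the 20 °C arrays. It rose by 2.36 (SE 0.2, adjusted p = 5.24e-06), a 5.12-fold change.

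COR15A and COR15B, neighbouring genes for small hydrophilic proteins of the chloroplast stroma, rose less on the log2 scale. COR15B read 13.85 and 13.77 at 12 °C, against 12.89 and 12.55 at 20 °C, a difference of 1.09 (SE 0.14, adjusted p = 0.000226). COR15A read 14.17 and 14.20 at 12 °C, against 13.37 and 13.24 at 20 °C, a difference of 0.88 (SE 0.11, adjusted p = 0.000165). Neither pair of groups overlapped. Whether the probe sets of these similar genes read each other's transcripts was not tested. Both genes read near the highest value of the 4 arrays, 14.75, and whether that limits their differences was not tested.

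The other measured members of the list did not pass. STZ, a zinc-finger repressor induced by cold and salt, had the largest difference of any probe set that was not called, at 1.58 (SE 0.51, adjusted p = 0.0561), and read 8.81 and 7.30 at 12 °C, against 6.77 and 6.18 at 20 °C. Its 12 °C arrays were both above its 20 °C arrays but lay far apart from each other. COR27, a cold-induced regulator tied to the clock, differed by 0.56 (SE 0.18, adjusted p = 0.0614), and AT4G33980 by 0.41 (SE 0.31, adjusted p = 0.463). Without the letter block, COR47 did not pass (adjusted p = 0.134), and LTI30, COR15A and COR15B did.

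Several genes known in the annotation only by their locus code changed by as much as the COR genes. AT1G51090 read 11.25 and 10.15 at 12 °C, against 8.50 and 8.28 at 20 °C, and rose by 2.31 (SE 0.2, adjusted p = 6.34e-06). AT1G16850 read 10.76 and 10.14 at 12 °C, against 8.72 and 8.17 at 20 °C, and rose by 2.01 (SE 0.16, adjusted p = 3.84e-06). In both, the groups were well apart although the A arrays were brighter than the B arrays at either temperature. AT5G62210, by contrast, was brighter on the B arrays, at 8.88 and 10.10 at 12 °C, against 7.09 and 7.88 at 20 °C. It rose by 2.004 (SE 0.36, adjusted p = 0.00233).

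AT5G35970 and AT2G16890 had little spread between letters. AT5G35970 read 10.43 and 10.46 at 12 °C, against 8.55 and 8.44 at 20 °C, a difference of 1.95 (SE 0.2, adjusted p = 2.71e-05), and AT2G16890 read 8.40 and 8.55 at 12 °C, against 6.53 and 6.64 at 20 °C, a difference of 1.89 (SE 0.16, adjusted p = 5.24e-06). Rises of 1.46 to 1.97 were called for AT1G32860 (1.97), AT1G06000 (1.78), AT1G73480 (1.72), AT3G55760 (1.66), AT2G23910 (1.65), AT4G36010 (1.57), AT3G17130 (1.51), AT1G27200 (1.48) and AT3G57020 (1.46). Probe sets without a single listed gene, which have none or several, also rose by as much, the largest by 3.74, above LTI30, and the next by 3.18, below it. Among the genes of these paragraphs, the fit without the block did not call AT1G51090 (adjusted p = 0.0747), AT5G62210 (adjusted p = 0.0919), AT1G73480 (adjusted p = 0.156), AT4G36010 (adjusted p = 0.214), AT1G27200 (adjusted p = 0.521) and AT3G57020 (adjusted p = 0.0567). In leave-out fits, calls were lost for AT1G06000 without the 20 °C B array (0.0806) and AT4G36010 without the 12 °C A and 20 °C A array in turn (up to 0.057), with the adjusted p in parentheses.

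**Figure D2:**
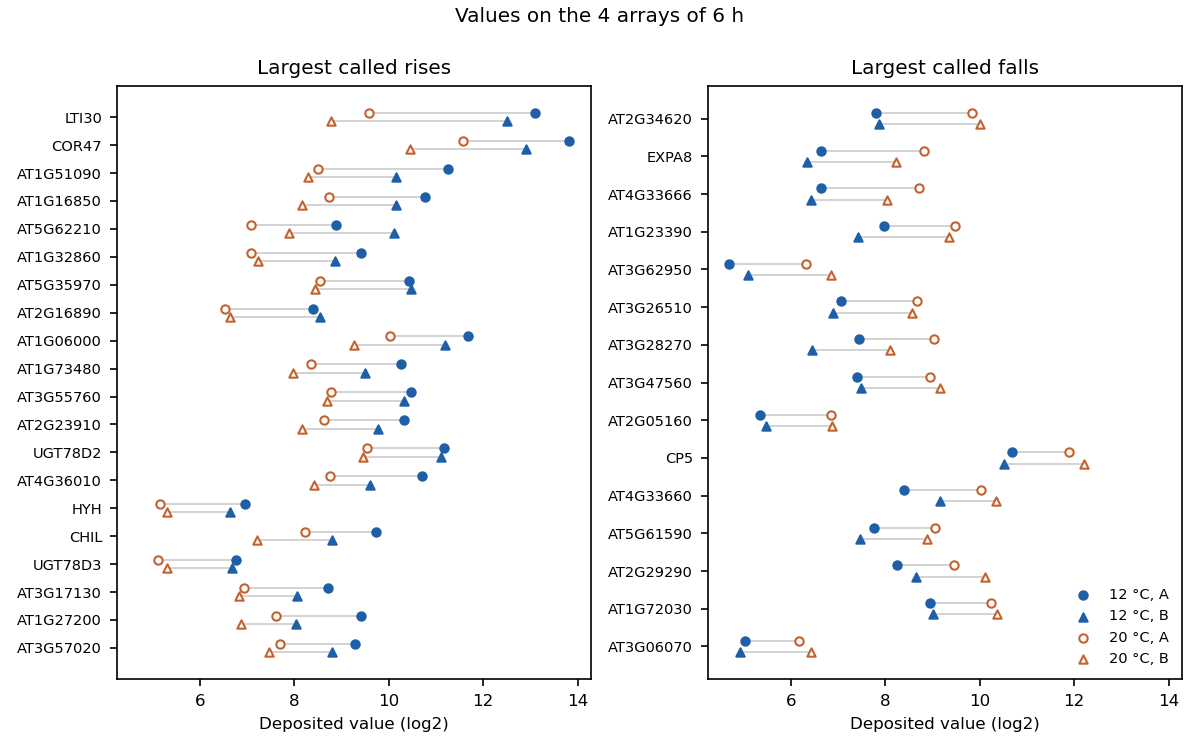
Deposited log2 values on the 4 arrays of 6 h for the 20 largest called rises (left) and the 15 largest called falls (right) among probe sets with a single gene. Filled blue symbols are 12 °C, open orange symbols 20 °C, circles replicate A and triangles replicate B, and a grey line joins each pair. In every gene shown both pairs run the same way, from LTI30 (difference 3.62) to AT3G57020 (1.46) among the rises and from AT2G34620 (-2.08) to AT3G06070 (-1.32) among the falls.

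Part of the flavonoid genes were higher at 12 °C. Flavonoids, which include the red anthocyanins, are built by chalcone synthase and the enzymes after it and are then decorated with sugars and acyl groups. Of 22 list entries 7 were measured, 3 were called higher and none lower, with a median difference of 0.46. Of all probe sets, 5.52% were called higher. UGT78D2, which adds glucose to flavonols and anthocyanidins, read 11.16 and 11.11 at 12 °C, against 9.55 and 9.46 at 20 °C. The replicates were close together in each group, and the rise of 1.63 (SE 0.21, adjusted p = 0.000178) is 3.1-fold. CHIL, a chalcone isomerase-like protein that raises the yield of the early steps, read 9.73 and 8.80 at 12 °C, against 8.23 and 7.20 at 20 °C, and rose by 1.55 (SE 0.32, adjusted p = 0.00555). AT5MAT, which adds malonyl groups to anthocyanins, read 7.89 and 7.93 at 12 °C, against 7.12 and 6.82 at 20 °C, and rose by 0.94 (SE 0.18, adjusted p = 0.00297).

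Other steps were not called after 6 h. DFR, the reductase on the way to anthocyanins, differed by 0.36 (adjusted p = 0.332), the xylosyltransferase UF3GT by 0.36, the flavonol rhamnosyltransferase UGT78D1 by 0.29 and AT4G14090 by 0.46. HYH, a bZIP transcription factor that acts in light signalling, read 6.96 and 6.64 at 12 °C, against 5.16 and 5.31 at 20 °C. It rose by 1.57 (SE 0.28, adjusted p = 0.00206), and both 12 °C arrays were above both 20 °C arrays. Of the 15 bZIP genes measured by name, 2 rose, HYH and the zinc-response factor bZIP19 (0.31), and BZIP61 fell by 0.97 (adjusted p = 0.0283). Of all probe sets with a gene name, 14% were called.

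UDP-glycosyltransferases move sugars onto flavonoids, other phenolics and hormones. Their list and that of the bZIP genes are symbol patterns written after values were seen. Among 47 named members 8 were called higher and 3 lower, and the family median was 0.05, close to the 0.00 of all probe sets, of which 12.1% were called. UGT78D3, which adds arabinose to flavonols, read 6.77 and 6.68 at 12 °C, against 5.10 and 5.29 at 20 °C, with both 12 °C arrays above both 20 °C arrays, and rose by 1.52 (SE 0.19, adjusted p = 0.000165). UGT84A3, which glucosylates hydroxycinnamates such as sinapate, read 9.25 and 8.01 at 12 °C, against 7.73 and 7.10 at 20 °C, and rose by 1.21 (SE 0.21, adjusted p = 0.00168), and UGT72B3 rose by 0.71 (SE 0.11, adjusted p = 0.000877). UGT85A2, UGT76C2 and UGT88A1 fell, with differences of -0.50, -0.39 and -0.39. The fit without the letter block did not call CHIL (adjusted p = 0.336), UGT84A3 (adjusted p = 0.399), UGT72B3 (adjusted p = 0.192), UGT85A2 (adjusted p = 0.515), UGT76C2 (adjusted p = 0.269), UGT88A1 (adjusted p = 0.101), bZIP19 (adjusted p = 0.187) and BZIP61 (adjusted p = 0.647). Leaving out arrays ended the calls of CHIL without the 20 °C B array (0.0556), UGT85A2 without the 12 °C B, 20 °C A and 20 °C B array in turn (up to 0.413), UGT76C2 without the 12 °C A and 20 °C B array in turn (up to 0.168), UGT88A1 without any 1 of the 4 arrays (up to 0.194), BZIP61 without the 12 °C A, 20 °C A and 20 °C B array in turn (up to 0.262) and bZIP19 without the 12 °C B and 20 °C B array in turn (up to 0.0802), with the adjusted p in parentheses.

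Of the lists for sugars, the SWEET and TMT transporters had members called higher, the list of sucrose synthesis and cleavage had its 1 measured gene called lower, and starch breakdown had none called. The SWEET and TMT lists are symbol patterns written after values were seen. Of 14 SWEET sugar exporters 2 were called higher and none lower, with a median of -0.03, a share of calls near the 12.1% of all probe sets. SWEET13, a sucrose exporter of the leaf, read 7.45 and 7.10 at 12 °C, against 6.32 and 6.28 at 20 °C, and rose by 0.98 (SE 0.14, adjusted p = 0.000486). SWEET1, a glucose carrier, rose by 0.53 (SE 0.14, adjusted p = 0.0202). TMT2, which loads sugars into the vacuole, read 9.94 and 9.95 at 12 °C, against 9.17 and 9.27 at 20 °C, and rose by 0.73 (SE 0.14, adjusted p = 0.00343), while its relatives TMT1 and TMT3 differed by 0.17 and 0.14 and were not called.

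ATSPS4F, a sucrose-phosphate synthase, read 8.36 and 8.25 at 12 °C, against 9.37 and 9.31 at 20 °C. Both 12 °C arrays were about 1 log2 unit below their 20 °C partners, and the difference of -1.04 (SE 0.19, adjusted p = 0.00247) is a 2.05-fold fall. AKINBETA1, a beta subunit of an energy-sensing protein kinase, read 6.43 and 6.02 at 12 °C, against 7.60 and 7.14 at 20 °C, and fell by 1.14 (SE 0.14, adjusted p = 0.000124). SDP1, the lipase that starts the breakdown of stored oil, fell by 0.74 (SE 0.13, adjusted p = 0.00212). PGM, listed as a phosphoglycerate/bisphosphoglycerate mutase, rose by 1.15 (SE 0.18, adjusted p = 0.000796), and PDC2, a pyruvate decarboxylase, by 0.73 (SE 0.18, adjusted p = 0.0154). The starch breakdown genes PWD and DPE1 differed by -0.11 and -0.42 and were not called. No call without the letter block was made for SWEET13 (adjusted p = 0.087), SWEET1 (adjusted p = 0.505) and PDC2 (adjusted p = 0.21). With arrays left out, calls were lost for SWEET1 without the 12 °C A, 12 °C B and 20 °C B array in turn (up to 0.193) and PDC2 without the 12 °C A and 20 °C A array in turn (up to 0.162).

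Part of the genes for making ribosomes rose. RNA polymerase I transcribes the ribosomal RNA precursor, which is trimmed, modified and assembled with proteins in the nucleolus. Of 7 measured nucleolar assembly genes 4 were called higher and none lower, with a median of 0.42, against 5.52% called higher of all probe sets. Their list is a symbol pattern written after values were seen. YAO, a nucleolar protein of the rRNA processing machinery, read 9.70 and 9.85 at 12 °C, against 8.94 and 8.93 at 20 °C. The groups were well separated, with a rise of 0.84 (SE 0.12, adjusted p = 0.000318). PRH75, a nucleolar RNA helicase, rose by 0.73 (SE 0.15, adjusted p = 0.00546), DIM1A, which methylates the small-subunit rRNA, by 0.42 (SE 0.073, adjusted p = 0.00176), and RRP41, a core subunit of the RNA exosome, by 0.34. RRP41L, IMP4 and DIM1B differed by 0.42, 0.32 and 0.09 and were not called.

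Of 12 RNA polymerase subunits 3 were called, all higher, and the median of the 12 was 0.11. Their list, too, is a symbol pattern written after values were seen. Of all probe sets, 5.52% were called higher. NRPA1, the largest subunit of RNA polymerase I, read 9.05 and 8.69 at 12 °C, against 8.34 and 7.53 at 20 °C, and rose by 0.93 (SE 0.2, adjusted p = 0.00614). NRPA2, the second-largest, rose by 0.51 (SE 0.12, adjusted p = 0.0128). These were the only polymerase I subunits measured by name. The third was NRPB7 of RNA polymerase II, at 0.39 (SE 0.096, adjusted p = 0.014), while the RNA polymerase III subunits NRPC1 and NRPC2 differed by 0.09 and 0.23 and were not called. RBL (REBELOTE), a member of a family whose yeast relative works in assembly of the large ribosomal subunit, read 9.95 and 10.50 at 12 °C, against 9.09 and 9.32 at 20 °C, and rose by 1.02 (SE 0.15, adjusted p = 0.000482). No call without the letter block was made for NRPA1 (adjusted p = 0.175), NRPA2 (adjusted p = 0.456), NRPB7 (adjusted p = 0.051), DIM1A (adjusted p = 0.192), RRP41 (adjusted p = 0.369) and RBL (adjusted p = 0.121). In leave-out fits, calls were lost for NRPA1 without the 12 °C B and 20 °C B array in turn (up to 0.104), NRPA2 without the 12 °C B and 20 °C B array in turn (up to 0.163), NRPB7 without the 12 °C A, 12 °C B and 20 °C B array in turn (up to 0.211), PRH75 without the 12 °C B and 20 °C B array in turn (up to 0.0799) and RRP41 without the 12 °C B, 20 °C A and 20 °C B array in turn (up to 0.18), with the adjusted p in parentheses.

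The clock, gibberellin and antioxidant lists had 1 of 2, 1 of 3 and 2 of 4 measured members called, all higher, against 12.1% of all probe sets. GI (GIGANTEA), a clock-associated protein that also controls flowering, read 11.003 and 10.69 at 12 °C, against 9.98 and 9.88 at 20 °C, and rose by 0.92 (SE 0.14, adjusted p = 0.00063). TIC, the other clock gene measured of 19 entries, differed by 0.02. GID1B, a gibberellin receptor, rose by 0.73 (SE 0.22, adjusted p = 0.0429), whereas GID1A and GID1C differed by 0.02 and -0.01 and were not called. GR1, a glutathione reductase that recycles the main thiol antioxidant, read 10.40 and 10.41 at 12 °C, against 9.85 and 9.52 at 20 °C, and rose by 0.72 (SE 0.12, adjusted p = 0.00116). GR, the organelle form, rose by 0.31 (SE 0.073, adjusted p = 0.0111), and the chloroplast ascorbate peroxidases SAPX and TAPX, at 0.19 and -0.18, were not called.

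Further named genes that rose included SAT32 (1.28), a gene named for salt tolerance, the tetraspanin TET3 (1.10), MPC (0.96), the cation/proton exchanger CHX16 (0.94), the protease inhibitor SERPIN1 (0.87), the defensin-like LCR69 (0.82), the vacuolar processing enzyme BETA-VPE (0.72) and the temperature-induced lipocalin TIL (0.56). SERPIN1 had the closest replicates of these, at 11.30 and 11.27 at 12 °C, against 10.39 and 10.45 at 20 °C. A difference was not called in the fit without the block for GI (adjusted p = 0.309), GID1B (adjusted p = 0.444), GR (adjusted p = 0.378), TET3 (adjusted p = 0.135), CHX16 (adjusted p = 0.0579), LCR69 (adjusted p = 0.149), BETA-VPE (adjusted p = 0.197) and TIL (adjusted p = 0.269). Leaving out single arrays ended the calls of GID1B without any 1 of the 4 arrays (up to 0.251), GR without the 12 °C B and 20 °C B array in turn (up to 0.119), BETA-VPE without the 20 °C A array (0.0549) and TIL without the 12 °C B and 20 °C A array in turn (up to 0.0573), with the adjusted p in parentheses.

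The largest falls were mostly of genes known by locus code. AT2G34620 read 7.80 and 7.87 at 12 °C, against 9.83 and 10.000 at 20 °C, with close replicates in both groups. Its difference of -2.08 (SE 0.11, adjusted p = 2.63e-07) had the smallest adjusted p of the named genes and is a 4.22-fold fall. EXPA8, an expansin that loosens cell walls during growth, read 6.64 and 6.33 at 12 °C, against 8.82 and 8.22 at 20 °C. Its 12 °C arrays were both below its 20 °C arrays, and it fell by 2.03 (SE 0.28, adjusted p = 0.000322), 4.09-fold.

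AT4G33666 and AT4G33660, which lie near each other in the TAIR10.1 gene table, both fell. AT4G33666 read 6.64 and 6.42 at 12 °C, against 8.71 and 8.02 at 20 °C, a difference of -1.84 (SE 0.18, adjusted p = 1.94e-05), and AT4G33660 read 8.39 and 9.15 at 12 °C, against 10.03 and 10.35 at 20 °C, a difference of -1.42 (SE 0.17, adjusted p = 0.000122). AT3G47560 read 7.39 and 7.48 at 12 °C, against 8.93 and 9.15 at 20 °C, and fell by 1.61 (SE 0.12, adjusted p = 2.35e-06). AT5G61590, listed with the synonym DEWAX and known as a repressor of wax synthesis genes, read 7.75 and 7.46 at 12 °C, against 9.04 and 8.87 at 20 °C, and fell by 1.35 (SE 0.16, adjusted p = 0.000114). Its 12 °C and 20 °C arrays were more than 1 log2 unit apart.

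Falls between -1.72 and -1.32 were called for AT1G23390 (-1.72), AT3G62950 (-1.69), AT3G26510 (-1.65), AT3G28270 (-1.62), AT2G05160 (-1.45), CP5 (-1.45), AT2G29290 (-1.34), AT1G72030 (-1.33) and AT3G06070 (-1.32). The lowest differences of all were on probe sets without a single listed gene, at -2.54 and -2.41. The fit without the block did not call EXPA8 (adjusted p = 0.0792), AT3G62950 (adjusted p = 0.187) and AT3G28270 (adjusted p = 0.071). AT3G28270 was also lost without the 12 °C B array (adjusted p = 0.131) and without the 20 °C A array (adjusted p = 0.1).

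Most of the measured genes of the ATG8 autophagy family and of the list for the electron transfer flavoprotein were called lower. Both lists are symbol patterns written after values were seen. ATG8 proteins are attached to a lipid and build the autophagosome, the membrane sac that carries cell contents to the vacuole. By name 9 family members were measured, 5 were called lower and none higher, and the family median was -0.36. Of all probe sets, 6.6% were called lower. ATG8E read 6.30 and 6.37 at 12 °C, against 7.65 and 7.63 at 20 °C. The replicates of each group lay close together, and the difference of -1.31 (SE 0.17, adjusted p = 0.000158) is a 2.48-fold fall. ATG8F read 9.61 and 9.79 at 12 °C, against 10.43 and 10.52 at 20 °C, and fell by 0.77 (SE 0.13, adjusted p = 0.00133). ATG8C, ATG8H and APG8H also fell, with differences of -0.52, -0.48 and -0.35. ATG8D and ATG8G, at -0.36 and -0.26, were not called, nor were APG8A at -0.17 and ATG8B at 0.02. The fit without the block did not call ATG8C (adjusted p = 0.126) and APG8H (adjusted p = 0.324), and with arrays left out calls were lost for ATG8C without any 1 of the 4 arrays (up to 0.14), ATG8H without the 12 °C B and 20 °C B array in turn (up to 0.0733) and APG8H without any 1 of the 4 arrays (up to 0.128).

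The electron transfer flavoprotein (ETF) of mitochondria passes electrons from the breakdown of branched-chain amino acids, lysine and phytol to the respiratory chain. The list also holds genes of leucine, lysine and phytol breakdown. Of its 8 genes 7 were called lower and none higher, with a median of -0.40, against 6.6% called lower of all probe sets. ETFALPHA and ETFBETA, the subunits of the carrier, fell, with differences of -0.30 and -0.39, as did ETFQO, the enzyme that takes electrons from it, with -0.40. MCCA, a subunit of methylcrotonyl-CoA carboxylase in leucine breakdown, read 7.25 and 7.16 at 12 °C, against 7.93 and 7.81 at 20 °C, and fell by 0.66 (SE 0.17, adjusted p = 0.0168). MCCB, its partner, fell by 0.40 (SE 0.11, adjusted p = 0.029), with its 12 °C B value slightly above its 20 °C A value. D2HGDH, which oxidises a product of lysine breakdown, fell by 0.41 (SE 0.11, adjusted p = 0.0212) and PAHX, a phytanoyl-CoA hydroxylase, fell by 0.47 (SE 0.13, adjusted p = 0.024). IVD, the dehydrogenase before MCC, differed by 0.02 and was not called. Without the letter block no call was made for ETFALPHA (adjusted p = 0.0781), ETFQO (adjusted p = 0.349), MCCA (adjusted p = 0.0834), MCCB (adjusted p = 0.488), D2HGDH (adjusted p = 0.0662) and PAHX (adjusted p = 0.076). With arrays left out, calls were lost for ETFALPHA without any 1 of the 4 arrays (up to 0.189), ETFBETA without the 12 °C B and 20 °C B array in turn (up to 0.0899), ETFQO without the 12 °C B and 20 °C B array in turn (up to 0.0855), MCCA without any 1 of the 4 arrays (up to 0.101), MCCB without the 12 °C A, 20 °C A and 20 °C B array in turn (up to 0.251), D2HGDH without any 1 of the 4 arrays (up to 0.141) and PAHX without the 12 °C B, 20 °C A and 20 °C B array in turn (up to 0.29), with the adjusted p in parentheses.

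Most of the measured genes of the NDH and photosystem II assembly lists were called lower. Both lists are symbol patterns written after values were seen. The plastid-encoded photosystem subunits were not called, and neither were the leaf photosynthesis markers above. The chloroplast NDH complex carries electrons around photosystem I. All 4 nuclear-encoded NDH proteins measured by name were called lower, with a median of -0.48, against 6.6% called lower of all probe sets. NdhS read 10.60 and 10.50 at 12 °C, against 11.10 and 11.15 at 20 °C, and fell by 0.58 (SE 0.094, adjusted p = 0.00113). NdhN read 10.61 and 10.87 at 12 °C, against 11.06 and 11.38 at 20 °C, and fell by 0.48 (SE 0.07, adjusted p = 0.000515). NdhL fell by 0.45 (SE 0.085, adjusted p = 0.00283) and PIFI fell by 0.47 (SE 0.12, adjusted p = 0.0219), and the groups of all 4 were apart. PGRL1B, which acts in the other route of cyclic electron flow, read 8.31 and 8.20 at 12 °C, against 8.94 and 8.86 at 20 °C, and fell by 0.65 (SE 0.081, adjusted p = 0.000142).

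Of 6 assembly factors of photosystem II 4 were called lower and none higher, with a median of -0.31, against 6.6% called lower of all probe sets. PAM68 fell by 0.57 (SE 0.092, adjusted p = 0.00104), although its 12 °C B value of 9.58 was above its 20 °C A value of 9.52. LPA2 fell by 0.43 (SE 0.098, adjusted p = 0.00964), LPA19 fell by 0.29 (SE 0.074, adjusted p = 0.0174) and PSB27 fell by 0.26. SECE1, part of the translocase that inserts proteins into the thylakoid, read 9.98 and 9.94 at 12 °C, against 10.62 and 10.76 at 20 °C, and fell by 0.73 (SE 0.098, adjusted p = 0.000272), and SECA2, a chloroplast translocase motor, fell by 0.61 (SE 0.14, adjusted p = 0.00933). CHLM of chlorophyll synthesis fell by 0.31 (SE 0.097, adjusted p = 0.0488) and the chloroplast calcium sensor CaS fell by 0.30 (SE 0.074, adjusted p = 0.0159).

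The 20 plastid-encoded photosystem subunits had a median difference of -0.10 and none was called, the widest being psbB at -0.75. Its SE of 0.47 was well above the median SE of 0.097 over all probe sets. Of 3 measured photorespiration genes 2 fell, against 6.6% called lower of all probe sets. HPR, the peroxisomal hydroxypyruvate reductase, read 12.69 and 12.82 at 12 °C, against 13.24 and 13.45 at 20 °C, and fell by 0.59 (SE 0.1, adjusted p = 0.00179), and AT1G11860 fell by 0.41 (SE 0.12, adjusted p = 0.0313). The fit without the block did not call NdhN (adjusted p = 0.236), PIFI (adjusted p = 0.177), PAM68 (adjusted p = 0.611), LPA2 (adjusted p = 0.468), LPA19 (adjusted p = 0.0545), PSB27 (adjusted p = 0.089), SECA2 (adjusted p = 0.128), CHLM (adjusted p = 0.559), CaS (adjusted p = 0.0575) and AT1G11860 (adjusted p = 0.108). Calls were lost with arrays left out for NdhL without the 20 °C B array (0.0582), PIFI without any 1 of the 4 arrays (up to 0.18), LPA2 without the 12 °C A and 20 °C B array in turn (up to 0.112), LPA19 without the 12 °C A, 12 °C B and 20 °C A array in turn (up to 0.145), PSB27 without the 12 °C A, 12 °C B and 20 °C B array in turn (up to 0.148), SECA2 without the 12 °C A and 20 °C B array in turn (up to 0.0988), CHLM without any 1 of the 4 arrays (up to 0.297), CaS without the 12 °C A, 12 °C B and 20 °C A array in turn (up to 0.125) and AT1G11860 without any 1 of the 4 arrays (up to 0.239), with the adjusted p in parentheses.

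**Figure D3:**
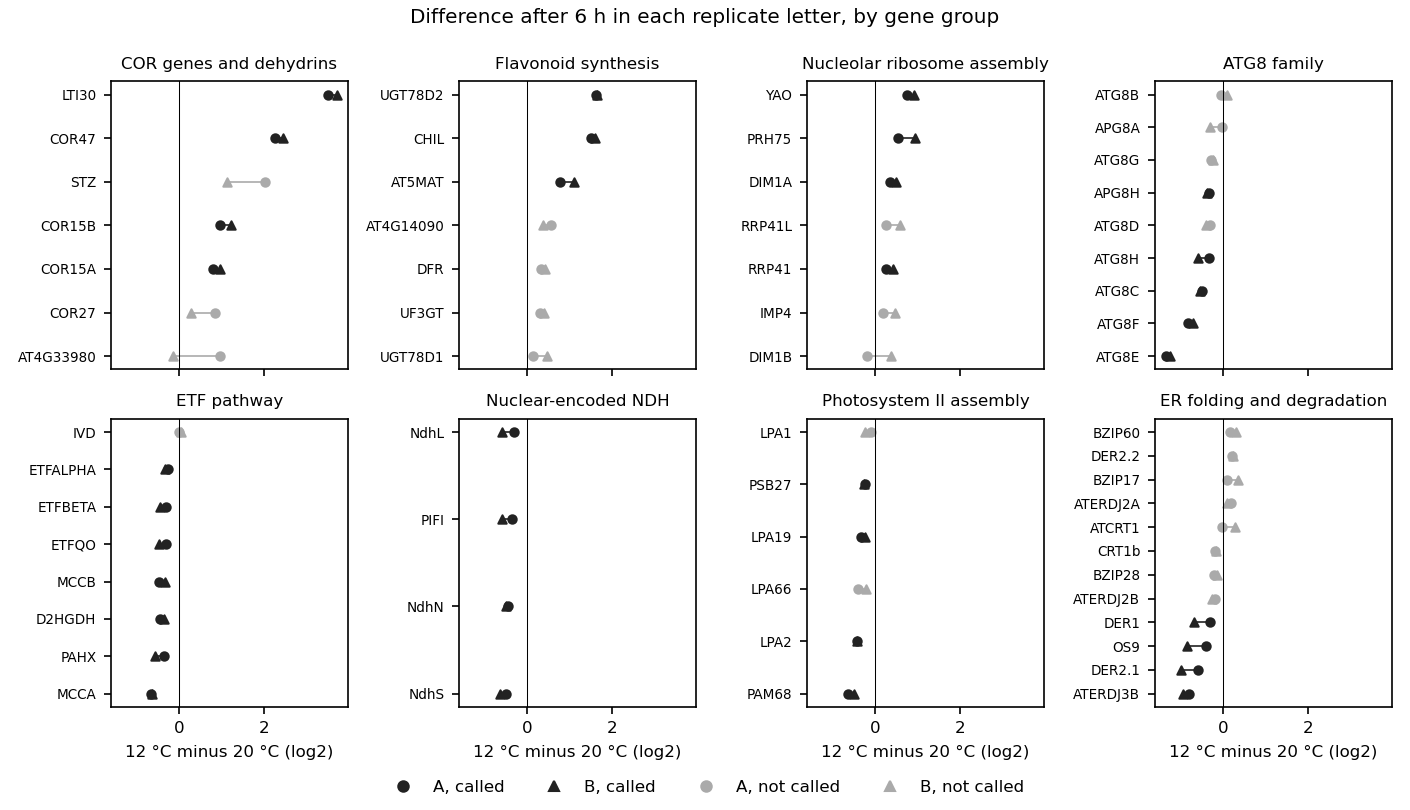
Difference between 12 °C and 20 °C after 6 h on the log2 scale for the members of 8 gene groups, with circles for replicate A, triangles for replicate B, black where called and grey where not. Called members of the COR, flavonoid and nucleolar groups lie right of 0 and those of the ATG8, ETF, NDH, photosystem II assembly and ER groups lie left of it.

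Genes of protein folding and disposal in the endoplasmic reticulum (ER) were lower in part. Of 12 genes measured 4 were called lower and none higher, with a median of -0.18, against 6.6% called lower of all probe sets. Their list is a symbol pattern written after values were seen. ATERDJ3B, a co-chaperone of the ER chaperone BiP, read 10.65 and 9.96 at 12 °C, against 11.45 and 10.90 at 20 °C, and fell by 0.87 (SE 0.24, adjusted p = 0.0269). DER2.1, a derlin of the channel that returns misfolded proteins to the cytosol, read 8.61 and 8.10 at 12 °C, against 9.20 and 9.08 at 20 °C, and fell by 0.79 (SE 0.13, adjusted p = 0.00117). OS9, a lectin that marks misfolded glycoproteins for this route, fell by 0.64 (SE 0.13, adjusted p = 0.00386) and DER1 fell by 0.51 (SE 0.14, adjusted p = 0.0244). The stress sensors BZIP60, BZIP17 and BZIP28 differed by 0.23, 0.21 and -0.19 and were not called. Of the cytosolic co-chaperones Fes1A rose by 0.62 (SE 0.16, adjusted p = 0.0191), whereas Fes1B fell by 0.78 (SE 0.16, adjusted p = 0.00619) and Fes1C fell by 0.28. Without the block no call was made for ATERDJ3B (adjusted p = 0.315), DER1 (adjusted p = 0.138), Fes1A (adjusted p = 0.0702), Fes1B (adjusted p = 0.0873) and Fes1C (adjusted p = 0.826). With arrays left out, calls were lost for ATERDJ3B without any 1 of the 4 arrays (up to 0.212), DER1 without the 12 °C B, 20 °C A and 20 °C B array in turn (up to 0.358), OS9 without the 12 °C B and 20 °C B array in turn (up to 0.074), Fes1A without the 12 °C A and 20 °C B array in turn (up to 0.224), Fes1B without the 20 °C B array (0.0718) and Fes1C without any 1 of the 4 arrays (up to 0.212), with the adjusted p in parentheses.

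In families of cell wall and detoxification genes, calls are to be read against the 12.1% called of all probe sets (5.52% higher and 6.6% lower) and the 14% called of the 1580 with a gene name. The lists of these families, and of the tubulins and RALF-like peptides below, are symbol patterns written after values were seen. Of 18 expansins and expansin-like genes 2 rose, EXPA9 (0.66) and EXLA2 (0.56), and 2 fell, EXPA8 and EXLB1 (-0.57), with a median of 0.10. Of 9 XTH wall-remodelling enzymes XTH32 rose by 0.51 (SE 0.12, adjusted p = 0.0115), with 9.51 on the 12 °C B array below 9.88 on the 20 °C A array. TBL36 and TBL25, of 22 members of a family that acetylates wall polymers, fell, with differences of -0.74 and -0.41, and CSLA03, a mannan synthase, fell by 0.83 (SE 0.11, adjusted p = 0.000277).

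Of 18 CYP71B cytochrome P450 enzymes 3 fell and none rose, against 6.6% called lower of all probe sets. CYP71B24 read 7.20 and 7.21 at 12 °C, against 7.87 and 8.28 at 20 °C, and fell by 0.87 (SE 0.13, adjusted p = 0.000584), CYP71B28 fell by 0.69 and CYP71B36 fell by 0.48. Of 14 glutathione S-transferases 2 were called, against 14% of named probe sets. GSTU18 fell by 0.88 (SE 0.099, adjusted p = 6.21e-05) and GSTU27 fell by 0.50. BGLU40, a beta-glucosidase, read 7.36 and 7.13 at 12 °C, against 8.38 and 8.45 at 20 °C, and fell by 1.17 (SE 0.16, adjusted p = 0.000338), and BGLU16 fell by 0.82. CCL, a light-regulated gene, read 12.92 and 12.64 at 12 °C, against 13.61 and 13.46 at 20 °C, and fell by 0.76 (SE 0.071, adjusted p = 1.47e-05). The actin-binding NET4B fell by 0.98, the kinesin-like KICP-02 fell by 0.85, and STOMAGEN, the peptide that promotes stomata, fell by 0.52.

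Among 7 tubulins 1 was called (TUB9, 0.47) and among 10 RALF-like peptides 2 (RALFL31 and RALFL33, -0.52 and -0.44), against 14% of named probe sets. The sphingolipid reductases TSC10A and TSC10B fell, with differences of -0.54 and -0.40. Without the block, the genes of these families that were not called were EXPA9 (adjusted p = 0.105), EXLA2 (adjusted p = 0.108), EXLB1 (adjusted p = 0.187), XTH32 (adjusted p = 0.822), TBL25 (adjusted p = 0.526), GSTU27 (adjusted p = 0.1), BGLU16 (adjusted p = 0.0992), KICP-02 (adjusted p = 0.0931), STOMAGEN (adjusted p = 0.175), RALFL31 (adjusted p = 0.05), RALFL33 (adjusted p = 0.362), TSC10A (adjusted p = 0.513) and TSC10B (adjusted p = 0.103). Leave-out fits lost the calls of EXPA9 without the 12 °C A, 12 °C B and 20 °C B array in turn (up to 0.376), EXLA2 without any 1 of the 4 arrays (up to 0.222), EXLB1 without the 12 °C B and 20 °C A array in turn (up to 0.103), XTH32 without the 12 °C A and 20 °C B array in turn (up to 0.179), TBL25 without the 12 °C B and 20 °C B array in turn (up to 0.257), CYP71B36 without the 20 °C B array (0.0725) and GSTU27 without any 1 of the 4 arrays (up to 0.174). They also lost those of BGLU16 without any 1 of the 4 arrays (up to 0.173), STOMAGEN without any 1 of the 4 arrays (up to 0.198), RALFL33 without the 12 °C A, 12 °C B and 20 °C A array in turn (up to 0.128) and TSC10B without the 12 °C A and 20 °C A array in turn (up to 0.0983), again with the adjusted p in parentheses.

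How 12 °C stands among the other temperatures was tested against its neighbours, in which the 20 °C arrays take no part. Against 14 °C, 4 of 22746 probe sets (0.0176%) were called, 1 higher (0.0044%) and 3 lower (0.0132%) at 12 °C. Of those lower at 12 °C, AT2G34620 differed by -0.74 (SE 0.11, adjusted p = 0.0496) and AT3G27420 by -0.59 (SE 0.086, adjusted p = 0.0496). AT3G27420 read 7.40 and 7.77 at 12 °C and 8.01 and 8.35 at 14 °C, and the 14 °C arrays were both above the 12 °C arrays. Its difference from 20 °C was -0.58 (SE 0.086, adjusted p = 0.00061), and 0.14 was the adjusted p of that difference without the block. Without the letter block 0 probe sets were called in limma (0%), while 849 had an unadjusted p below 0.05, against 2395 with it. None was called either without the 12 °C B array or without the 14 °C B array.

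Against 10 °C, 57 probe sets (0.251%) were called, 13 higher (0.0572%) and 44 lower (0.193%) at 12 °C, and 4 (0.0176%) without the letter block. Among the called genes lower at 12 °C, AT1G48100 differed by -1.48 (SE 0.24, adjusted p = 0.0211), AT5G62360 by -1.42 (SE 0.22, adjusted p = 0.0154) and AT2G24560 by -1.38 (SE 0.13, adjusted p = 0.000391). AT2G24560 read 6.01 and 5.75 at 12 °C and 7.40 and 7.13 at 10 °C, with a difference from 20 °C of 0.59 at 12 °C (adjusted p = 0.0068, and 0.0879 without the 12 °C A array) and 1.97 at 10 °C. AT5G59670, AT1G06540 and AT4G19530 were higher at 12 °C than at 10 °C, by 1.12, 0.79 and 0.71. The count was 8 without the 12 °C A array, 2 without the 12 °C B array, 1 without the 10 °C A array and 16 without the 10 °C B array.

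Set side by side, each temperature has its own difference from 20 °C, and all of them share the same 20 °C arrays. LTI30 differed by 1.76 at 17 °C, 2.55 at 14 °C, 3.62 at 12 °C, 4.51 at 10 °C and 4.39 at 8 °C. COR47 differed by 1.08 at 17 °C, 1.65 at 14 °C, 2.36 at 12 °C, 2.91 at 10 °C and 2.76 at 8 °C. For AT2G34620 the differences were -0.81 at 17 °C, -1.34 at 14 °C, -2.08 at 12 °C, -2.73 at 10 °C and -2.55 at 8 °C. These 3 genes had their largest differences at 10 °C, and 10 °C against 8 °C was not tested. Of the 3, only AT2G34620 was called between 12 °C and 14 °C and between 12 °C and 10 °C. LTI30 and COR47 were called in neither.

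Other genes had much of their difference at milder temperatures or no further one below 12 °C. COR15A differed by 0.68 at 17 °C, 0.69 at 14 °C, 0.88 at 12 °C, 0.90 at 10 °C and 0.82 at 8 °C. As said above, it read near the top of the range, and a limit from that was not tested. ATSPS4F differed by -0.54 at 17 °C, -1.09 at 14 °C, -1.04 at 12 °C, -0.67 at 10 °C and -0.83 at 8 °C, with its lowest values at 14 and 12 °C. NRPA1 differed by 0.53 at 17 °C, 0.55 at 14 °C, 0.93 at 12 °C, 0.73 at 10 °C and 0.60 at 8 °C, highest at 12 °C. None of COR15A, ATSPS4F and NRPA1 was called between 12 °C and 14 °C or between 12 °C and 10 °C. At 17, 14, 10 and 8 °C the calls against 20 °C after 6 h numbered 37 (0.163%), 1038 (4.56%), 4442 (19.5%) and 4289 (18.9%).

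**Figure D4:**
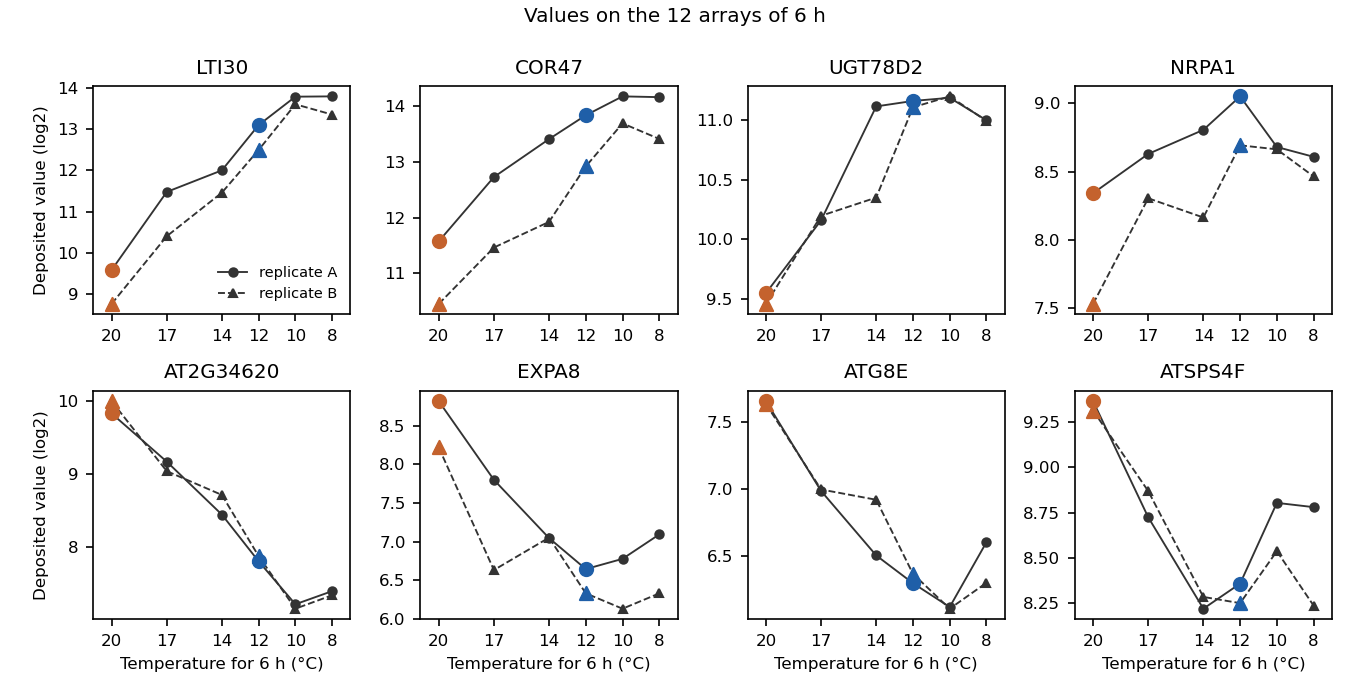
Deposited log2 values on the 12 arrays of 6 h for 8 genes against temperature, from 20 °C at the left to 8 °C at the right, with circles and solid lines for replicate A and triangles and dashed lines for replicate B. Blue marks 12 °C and orange 20 °C. LTI30 reads 13.10 and 12.50 at 12 °C and 9.59 and 8.77 at 20 °C, and AT2G34620 reads 7.80 and 7.87 at 12 °C and 9.83 and 10.000 at 20 °C.

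The difference between 12 °C and 20 °C was compared between the harvests of 6 h and 78 h, each against its own 20 °C arrays. It differed for 332 probe sets (1.46%), 147 with a higher (0.646%) and 185 with a lower (0.813%) value at 6 h, and for 8 (0.0352%) without the letter block. Of these 8, 1 had the higher and 7 the lower value at 6 h. Whether the single genes below keep this call without the block, or with an array left out, is not reported here. Of the 332, the fitted difference was above 0 after 6 h and below 0 after 78 h in 88, of which 61 were called at 6 h and 32 at 78 h. It was below 0 after 6 h and above 0 after 78 h in 137, of which 91 were called at 6 h and 53 at 78 h. COR47, at 78 h, read 12.78 and 11.46 at 12 °C, against 12.23 and 10.93 at 20 °C, and the 6 h difference exceeded the 78 h difference by 1.81 (SE 0.28, adjusted p = 0.00764). LTI30 still read 12.59 and 11.51 at 12 °C, against 9.91 and 9.09 at 20 °C at 78 h, a difference of 2.55 (adjusted p = 1.92e-05), and its change between harvests was not called.

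UGT78D3 and GI, higher at 12 °C after 6 h, differed by 0.07 and -0.09 after 78 h, and the differences between harvests were 1.45 (SE 0.27, adjusted p = 0.0217) and 1.004 (SE 0.2, adjusted p = 0.0236). ATSPS4F, lower at 12 °C after 6 h, read 9.84 and 9.39 at 12 °C, against 9.10 and 9.50 at 20 °C after 78 h, and its difference between harvests was -1.35 (SE 0.27, adjusted p = 0.0259). AT2G34620 differed by -0.39 after 78 h (adjusted p = 0.0581), against -2.08 after 6 h, a gap of -1.69 (SE 0.16, adjusted p = 0.000289). AT5G48490 and AT4G12490 were higher at 12 °C after 78 h relative to 6 h, with gaps of -1.90 (SE 0.32, adjusted p = 0.0127) and -1.42 (SE 0.18, adjusted p = 0.00147). AT5G62360, whose 6 h difference of 1.01 (SE 0.22, adjusted p = 0.00693) was not called without the letter block (adjusted p = 0.826) or with the 12 °C A or 20 °C A array left out (0.0787 and 0.0826), read 10.13 and 8.95 at 12 °C, against 10.89 and 10.06 at 20 °C after 78 h, so that it was lower at 12 °C then (-0.94, adjusted p = 0.02) and higher after 6 h.

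DFR had its larger difference after 78 h. It differed by 0.36 after 6 h and by 1.74 after 78 h (adjusted p = 0.000321), when it read 11.23 and 10.99 at 12 °C, against 9.38 and 9.37 at 20 °C, and the difference between harvests was -1.38 (SE 0.3, adjusted p = 0.0379). The number of calls between harvests fell to between 51 and 118 when any 1 of the 8 arrays was left out, lowest without the 12 °C A array of 78 h.

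**Figure D5:**
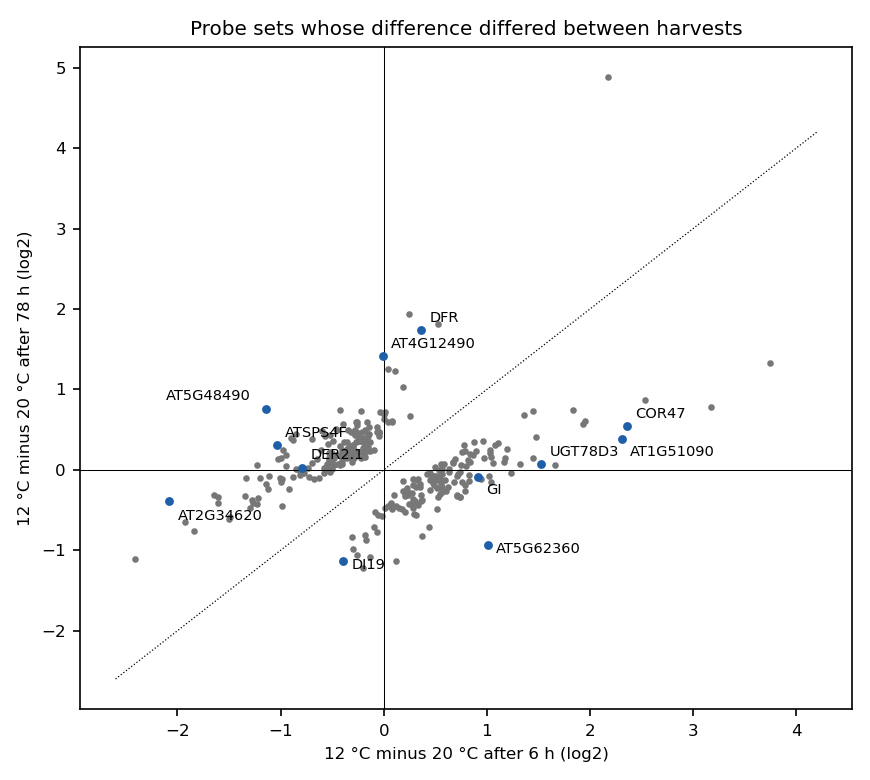
Difference between 12 °C and 20 °C after 6 h (horizontal) and after 78 h (vertical), both on the log2 scale, for the 332 probe sets whose difference changed between harvests. The dotted line marks equal differences and blue points carry gene names. COR47 lies far right of the line (2.36 and 0.54) and DFR above it (0.36 and 1.74).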

How the data were processed

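Messenger RNA of 24 samples of 3 rosettes each was measured on one-colour oligonucleotide arrays. Trizol extracts of about 10 µg RNA were biotin-labelled, per the labels' protocols. The authors deposited log2 values, already normalized between arrays; the method is not given in the sources used here. Their base was inferred from the range (3.87 to 14.75 on the 4 arrays). Array medians of the 24 arrays lay between 7.15 and 7.25. How precise a difference is depends on the number of arrays.

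A limma model (version 3.58.1, R 4.3.3) of the 24 arrays held 1 mean per group and the replicate letter, which left 11 residual degrees of freedom. The block is in the main fit because the comparison pairs arrays by letter. The labels do not state what the letters mark. The first principal component, the main axis of variation over the 24 arrays, held 39.2% of the variance and parted the A from the B arrays. Differences between the A and B arrays correlated at 0.52 to 0.89 in all 66 pairs of groups (0.83 for 12 °C with 20 °C at 6 h). Contrasts were 12 °C minus 20 °C, 14 °C and 10 °C at 6 h, and the 6 h minus the 78 h difference. Adjusted p-values follow Benjamini and Hochberg over 22746 probe sets. The fit was tested on simulated data that held the fitted letter effects, so this cannot test whether the block is apt.

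A single gene was listed for 13513 probe sets, of which 13436 matched the TAIR10.1 gene table and 1580 had a name other than a locus code. Genes were named by rule. These are the 20 largest rises and 15 largest falls, up to 4 members per list with at least 3 measured, all members of the COR, clock and marker lists, and the 3 largest each way in the other contrasts. Genes with a name called at 0.7 or more, and others named in the text, were added after their values were seen. Lists defined by gene descriptions could not be used, since the gene table has no descriptions, and were replaced by symbol patterns, also after values were seen. The COR, clock, gibberellin, starch, sucrose, flavonoid, photorespiration, antioxidant and marker lists were given by locus. Symbol patterns gave the other lists of the text. A gene with several probe sets counts by its brightest. The members and lists were chosen with earlier results of these data known. Alternatives were no block, a block within each harvest time, the 6 h arrays alone, cyclic loess, median centring, a filter on the dimmest 25%, trend with robust estimation, array weights, each array left out, each letter alone, averaging the probe sets of a gene and, chosen after seeing the data, the 4 arrays alone.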

Additional observations from a re-analysis of the deposited data

Results flagged for a closer look

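The difference between 12 °C and 20 °C differed between the harvests of 6 h and 78 h, by the limma contrast of both differences, for 27 of the named genes. These calls are from the fit with the block. Without it 8 of all probe sets were called, and the results of single genes are not reported here. In the following, each gap is the 6 h difference minus the 78 h difference on the log2 scale. Among genes higher at 12 °C after 6 h, the gap was 1.81 for COR47, 1.93 for AT1G51090, 1.60 for AT3G55760, 1.45 for UGT78D3, 1.07 for AT1G27200, 1.95 for AT5G62360, 1.05 for CHX16, 1.004 for GI, 0.68 for SERPIN1, 0.57 for TUB9 and 0.47 for DIM1A.

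Among genes lower at 12 °C after 6 h, the gap was -1.35 for ATSPS4F, -1.90 for AT5G48490, -1.69 for AT2G34620, -1.33 for AT3G26510, -1.27 for AT3G47560, -1.24 for AT1G72030, -1.07 for AT4G33666 and -1.02 for AT2G29290. It was -0.99 for EXLB1, -0.85 for SECA2, -0.82 for DER2.1, -0.63 for CYP71B36, -0.56 for TSC10A and -0.54 for LPA19. AT4G12490, at -0.01 after 6 h and 1.41 after 78 h, had a gap of -1.42, and DFR, at 0.36 and 1.74, one of -1.38.

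A control probe set for the housekeeping enzyme GAPDH, AFFX-Athal-GAPDH_5_s_at, which was left out of the counts, was higher at 12 °C by 0.39 (adjusted p = 0.0478 in limma). It read 11.63 and 11.42 at 12 °C, against 11.26 and 10.996 at 20 °C. The other GAPDH control probe sets, 4 in number, differed by 0.11 to 0.28 and were not called (adjusted p = 0.0564 to 0.618 in limma).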

How the results depend on the processing

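The number of probe sets called between 12 °C and 20 °C at 6 h was 2757, was 619 without the replicate block, and lay between 1146 and 1800 with 1 of the 4 arrays left out. It was between 2566 and 3605 under the other alternatives. The share called higher was 45.6%, against 49.8% after median centring and 51% after cyclic loess. Against 14 °C, 4 were called with the block, 8 with a block within each harvest time, 1 with the 6 h arrays alone, 7 with trend and robust estimation, and 0 without the replicate block, after median centring or cyclic loess, without the dimmest 25%, and with array weights, although 849, 2214, 2339, 1883 and 1784 had an unadjusted p below 0.05 in limma. Leaving out 1 array gave 0 to 4. Against 10 °C, the 57 became 4 without the replicate block, 206 with a block within each harvest time and 14 with the 6 h arrays alone, with 1 to 16 when 1 array was left out. The 332 calls between harvests became 8 without the replicate block, 788 with a block within each harvest time and 511 with array weights, with 51 to 118 when 1 array was left out. The cause of these changes was not tested. Of the 195 named genes, 140 were called, and 75 of these lost the call without the block. No named gene changed direction with a call under any alternative, an outcome that was largely fixed in advance. Without the block, with the 6 h or 4 arrays alone and with trend and robust estimation, the fitted difference stays the same. All called genes also differed the same way in both letters. Of the called genes in the text, the 6 h arrays alone did not call EXPA9, EXLA2, NRPB7, RRP41, AT1G11860 and TBL25. The 4 arrays alone did not call bZIP19, GR, PSB27, Fes1C, LPA19, CaS, ETFALPHA and TBL25. Median centring did not call Fes1C, CHLM and STOMAGEN, cyclic loess Fes1C and CHLM, and trend with robust estimation GID1B, Fes1C and BZIP61.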
